A study of Macaca fascicularis with 64 samples.

Results

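The insulin-like growth factor binding proteins are a family of 7 genes, IGFBP1 to IGFBP7, among the 21041 macaque genes counted, and all 7 were found by symbol. Their transcripts were followed in the hormone cells of the pancreatic islet of the cynomolgus monkey (Macaca fascicularis). Single cells had been picked by hand from dissociated islets and read by a modified STRT protocol, which counts each captured transcript once through a unique molecular identifier (UMI). The animals were 16 monkeys, 4 young females (YF1 to YF4), 4 young males (YM1 to YM4), 4 old females (OF1 to OF4) and 4 old males (OM1 to OM4). The young monkeys were 4 to 6 years of age and the old monkeys 18 to 21 years, and none had been treated or had served in an earlier experiment. Of 6141 cells, 5908 had more than 800 genes and more than 10000 UMIs and were kept, and each of these was typed by the highest of its 4 hormone transcripts. This gave 4503 α-cells (GCG, 76.2%), 1219 β-cells (INS, 20.6%), 112 δ-cells (SST, 1.90%) and 74 PP-cells (PPY, 1.25%).

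The proteins of this family are secreted and bind the growth factors IGF1 and IGF2 in blood and tissue. By holding the ligands they keep them from the IGF1 receptor, and proteases that cut the binding proteins set the ligands free. IGFBP1 to IGFBP6 bind with high affinity, whereas IGFBP7 binds IGFs weakly. In the islet, IGF and insulin signals act on the survival, growth and secretion of the hormone cells.

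The hormone that typed a cell is part of the choice and no finding. GCG had 75940 CPM (its UMIs per 1000000 UMIs of macaque genes) in the cells it typed against 19988 in the other types, INS 60336 against 6899, SST 84639 against 628 and PPY 87234 against 849. The highest hormone exceeded the next by a median of 14.3 times in α-cells, 3.29 times in β-cells, 3.18 times in δ-cells and 2.78 times in PP-cells. At the edge of the choice, the cell with the smallest lead had a ratio of 1.00 in α-cells, 1.00 in β-cells, 1.04 in δ-cells and 1.04 in PP-cells, and 12, 14, 1 and 4 cells of these types lay within 10% of the next hormone. The summed marker list of each type was highest in that type. Each list holds the hormone that typed the cells, so this is no finding either. All genes of these lists were in the files (7 genes for α, 7 for β, 5 for δ and 4 for PP).

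The sums of each monkey held between 20719761 and 34053080 UMIs of macaque genes over 4 libraries, with 79 to 96 cells in each of the 64 libraries. The libraries use the same 96 cell barcodes, so a barcode names a cell only within its library. Pancreata were taken on sequential days, so that the monkey and its day of collection cannot be told apart. All tests used the monkey as the replicate, on UMIs summed over the cells of a type where a monkey had at least 5 of them. That left 16 monkeys for α-cells (178 to 362 cells each), 16 for β-cells (11 to 194), 11 for δ-cells (7 young and 4 old, at most 14 cells) and 6 for PP-cells (YM1, YM4, OF1, OF2, OM2 and OM4, at most 33 cells).

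The member called for age was IGFBP4, a binding protein that holds IGFs away from their receptor and is cut by the protease PAPPA. In β-cells of young monkeys its level was lowest at 0, had a median of 1.56 CPM and reached 10.01 CPM. In β-cells of old monkeys it was lowest at 3.63 CPM, had a median of 42.7 CPM and reached 82.8 CPM. Every old monkey other than OM4 lay above all 8 young monkeys, and OM4 lay among them. The fitted log2 fold change of old over young was 4.11 ± 0.56 (SE), or 17.2-fold, with an adjusted p of 0.00190 in edgeR's quasi-likelihood test, adjusted by Benjamini-Hochberg over the 11101 genes tested. No other of these genes had a lower p.

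Only 0.036% of the genes tested in β-cells were called as higher in old monkeys (adjusted p under 0.05) and 0.00901% as lower, and of the 6 family members tested 1 was called. Besides IGFBP4, the genes called were SERPINA1, a protease inhibitor (1.97 on the log2 scale), CHGB, a secretory granule protein (1.57), and KIF26A, a kinesin (4.76), which were higher, and the unnamed gene ENSMFAG00000003105 (-6.01), which was lower. These 4 genes are named because their values were seen. The call of IGFBP4 held in each of 28 alternative fits, with log2 fold changes from 3.08 to 4.83 and adjusted p from 3.96e-13 to 0.0126. Leaving out any 1 monkey gave 3.91 to 4.50, with adjusted p from 0.000219 to 0.00702.

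**Figure D1:**
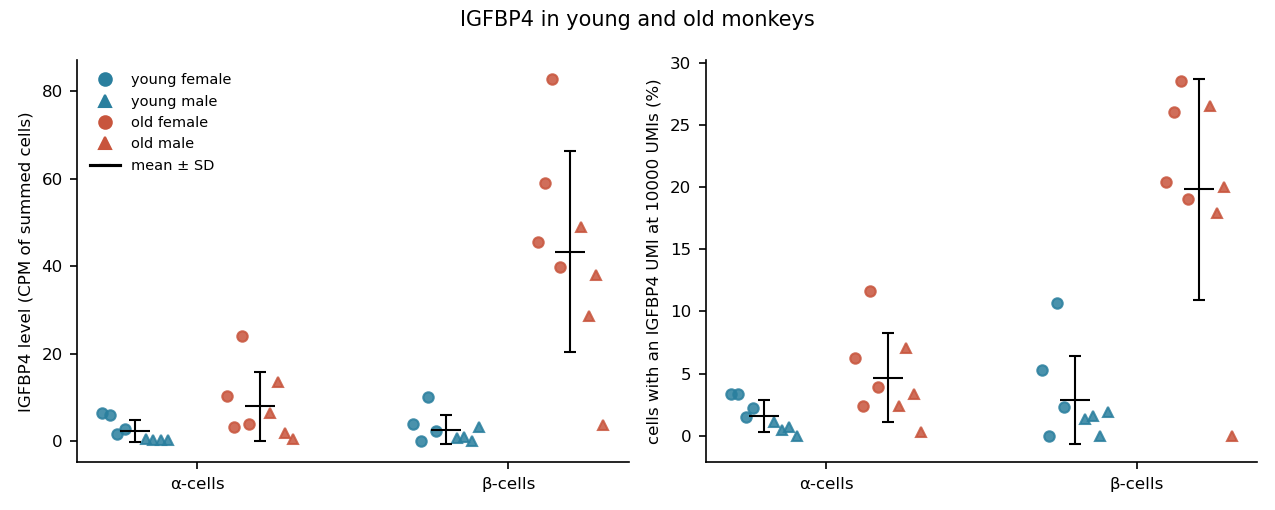
IGFBP4 in α-cells and β-cells of each monkey, by sex and age group (4 monkeys each). The y axes give CPM of the summed cells and the percentage of cells with at least 1 IGFBP4 UMI after every cell was thinned to 10000 UMIs, points are monkeys and bars are mean ± SD. In β-cells, 7 of the 8 old monkeys stand between 28.6 and 82.8 CPM, above every young monkey, and OM4 is at 3.63 CPM.

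The values in β-cells lay higher in old monkeys of both sexes. The old females had 45.5, 59.0, 82.8 and 39.9 CPM (OF1 to OF4) and the young females 3.89, 0, 10.01 and 2.19 CPM (YF1 to YF4). The old males had 48.9, 28.6, 37.9 and 3.63 CPM (OM1 to OM4) and the young males 0.603, 0.931, 0 and 3.30 CPM (YM1 to YM4). The age groups overlapped in neither sex, although OM4 lay only just above YM4. The value of 0 in YF2, with 11 β-cells, allows up to 4.82 CPM by counting error alone, and that in YM3, with 44 β-cells, up to 1.22 CPM. The age effect in females less that in males was -0.86 ± 1.02 on the log2 scale, and none of the 6 members tested for it in β-cells was called (0% of 11693 genes; 495 genes had an unadjusted p under 0.05, none of them a member, and DESeq2 called 1 higher and 1 lower gene).

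The rise was seen over many cells and libraries. IGFBP4 had at least 1 UMI in 344 of 683 old β-cells (50.4%, exact 95% binomial interval 46.5 to 54.2) and in 32 of 536 young β-cells (5.97%, 4.12 to 8.32), where the intervals cover counting error only. At least 10 UMIs were found in 83 old and 2 young β-cells. By monkey the share was 4.55% in OM4 and 40.3 to 71.4% in the other 7 old monkeys, against 0 to 17.9% in young monkeys. Old β-cells were read deeper, with a median of 81435 UMIs per cell against 64782.5 in young β-cells. After thinning to 10000 UMIs per cell the share was 0% in OM4, 17.9 to 28.6% in the other 7 old monkeys and 0 to 10.7% in the young monkeys, so the order was kept at equal depth. Over the 64 libraries, with all types together, the share of cells with an IGFBP4 UMI rose with the UMIs of the richest cell (Spearman rank correlation 0.806, described below). The part of this relation in the shares of β-cells was not tested.

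Among libraries with at least 5 β-cells, the 27 of young monkeys ranged from 0 to 15.0 CPM (median 1.78) and 11 of them were at 0. The 29 of old monkeys ranged from 0 to 161 CPM (median 41.2), and 1 was at 0. The value of OM4 rested on 1 of its 22 β-cells, which held all 6 UMIs, whereas the other 7 old monkeys kept 23.6 to 67.2 CPM without their highest cell. YF3, the highest young monkey, went from 10.01 to 4.45 CPM without a cell of 12 UMIs.

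Cells with markers of other pancreatic cell types were found among the typed cells, and were defined by at least 3 genes of a marker list with at least 2 UMIs each and at least 1000 CPM over the list. There were 148 of them, of which 76 carried acinar, 44 stellate, 14 endothelial, 12 immune and 4 duct markers (some carried more than 1 list). They held 8.19% of the IGFBP4 UMIs of β-cells and 16.2% of those of α-cells, and the summed level of the 10 stellate markers in β-cells ranged from 3.17 to 194 CPM in young (median 9.91) and from 7.70 to 311 CPM in old monkeys (median 22.2), with none of the 10 genes at 0 in either group. IGFBP4 had 136 CPM in the stellate-marker cells and 111 CPM in the endothelial-marker cells. The β-cell with the most IGFBP4 UMIs (104, in OF4) carried stellate markers, and the next highest (76, in OF1) carried none. Without all 148 cells the log2 fold change in β-cells was 4.10, with an adjusted p of 0.00210, about the same size. In the immune-marker cells 3 of 12 had an IGFBP4 UMI (25.0%, median 19461.5 UMIs per cell), and in the acinar-marker cells 13 of 76 (17.1%, median 57596), 12 of these with 1 UMI and none with more than 2. The share in young β-cells was below both and that in old β-cells above both, although the interval of the immune-marker cells was wide (5.49 to 57.2%). These marker-carrying cells pooled both age groups and were mostly typed as α-cells (71 of the acinar-marker and 11 of the immune-marker cells). They were also read less deeply than the β-cells, so the shares are not those of like cells. Of the 32 young β-cells with a UMI 18 had 1, and the highest had 13.

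In α-cells IGFBP4 was lower and more spread. The young monkeys had a lowest value of 0.133, a median of 1.02 and a highest value of 6.44 CPM, and the old monkeys 0.371, 5.18 and 24.1 CPM. The age groups overlapped, with OF1, OF3, OM1 and OM2 above every young monkey and the other old monkeys among them. The log2 fold change of old over young was 2.60 ± 0.76 with an adjusted p of 0.55, and 1 of 28 alternatives called it (DESeq2, 2.66, adjusted p 0.0208). None of the 7 members was called for age in α-cells, where edgeR called 0% of 13486 genes, 920 genes had an unadjusted p under 0.05, 2 members among them (IGFBP2 and IGFBP4), and DESeq2 called 17 higher and 9 lower genes. The age effect on IGFBP4 in β-cells exceeded that in α-cells by 2.15 ± 0.75 on the log2 scale, which was not called (adjusted p = 0.71; 0% of 13322 genes called, 806 with an unadjusted p under 0.05, 1 member among them, and 6 higher and 4 lower by DESeq2). The effect was therefore not shown to differ between the types.

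By sex, the IGFBP4 values in α-cells were 6.44, 5.91, 1.53 and 2.73 CPM in young females, 0.512, 0.133, 0.337 and 0.330 CPM in young males, 10.2, 3.10, 24.1 and 3.89 CPM in old females, and 6.48, 13.4, 1.74 and 0.371 CPM in old males. The young females all lay above the young males, and the old females and old males overlapped. Females over males gave 2.15 ± 0.75 on the log2 scale at an adjusted p of 0.73, and no member was called by sex in α-cells (0% of 13486 genes; 783 with an unadjusted p under 0.05, 4 members among them, and 23 higher and 8 lower by DESeq2). The interaction of sex and age was -2.84 ± 1.26 for IGFBP4 (adjusted p = 0.88) and 1.48 ± 0.67 for IGFBP5 (adjusted p = 0.88), in a test that called 0.00707% of 14146 genes, a single gene, CACNA1F (-6.88), named because its value was seen. In β-cells females over males gave 1.22 ± 0.51 for IGFBP4 and 3.13 ± 1.01 for IGFBP6, and no member was called (0% of 11101 genes; 444 with an unadjusted p under 0.05, 2 members among them, and 12 higher and 4 lower by DESeq2).

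The other members showed no call with age. IGFBP2, which also binds integrins, had 2.17, 49.8 and 88.9 CPM (lowest, median and highest) in α-cells of young monkeys and 1.69, 14.7 and 33.0 CPM in those of old monkeys. The young monkeys YF1, YF2, YF3 and YM3 lay above every old monkey, and the other young monkeys lay among the old. The log2 fold change was -1.66 ± 0.67 with an adjusted p of 0.72, and no alternative called it (-2.06 to -1.18). In β-cells IGFBP2 had a median of 33.7 CPM in young and 32.8 CPM in old monkeys, with a log2 fold change of -0.02 ± 0.60. IGFBP7 in α-cells had 91.6, 150 and 346 CPM in young and 143, 244 and 386 CPM in old monkeys, with groups that overlapped and a log2 fold change of 0.43 ± 0.27 (adjusted p = 0.82), and in β-cells it was 0.19 ± 0.29.

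IGFBP3, the main IGF carrier in blood, gave 0.03 ± 0.29 in α-cells and 0.79 ± 0.63 in β-cells for old over young. IGFBP5 gave -0.30 ± 0.38 and -0.38 ± 0.38, and IGFBP6, which prefers IGF2, gave 0.73 ± 0.83 and 0.90 ± 0.96. IGFBP1 was tested in α-cells only, with -0.65 ± 0.61. The median log2 fold change was 0.03 over the 7 members tested in α-cells and 0.49 over the 6 tested in β-cells, beside -0.00 and 0.01 over all genes tested.

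In δ-cells 2 members and in PP-cells 3 members passed the filter on low counts. In δ-cells IGFBP5 gave -0.29 ± 0.99 and IGFBP7 -0.61 ± 0.86, and edgeR called 0% of 7405 genes for age (289 with an unadjusted p under 0.05, no member among them, and 1 higher and 2 lower by DESeq2). In PP-cells IGFBP2 gave -0.21 ± 1.60, IGFBP5 0.73 ± 3.13 and IGFBP7 0.12 ± 0.60, and 0% of 6568 genes were called (394 with an unadjusted p under 0.05, no member among them, and 1 higher and none lower by DESeq2).

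**Figure D2:**
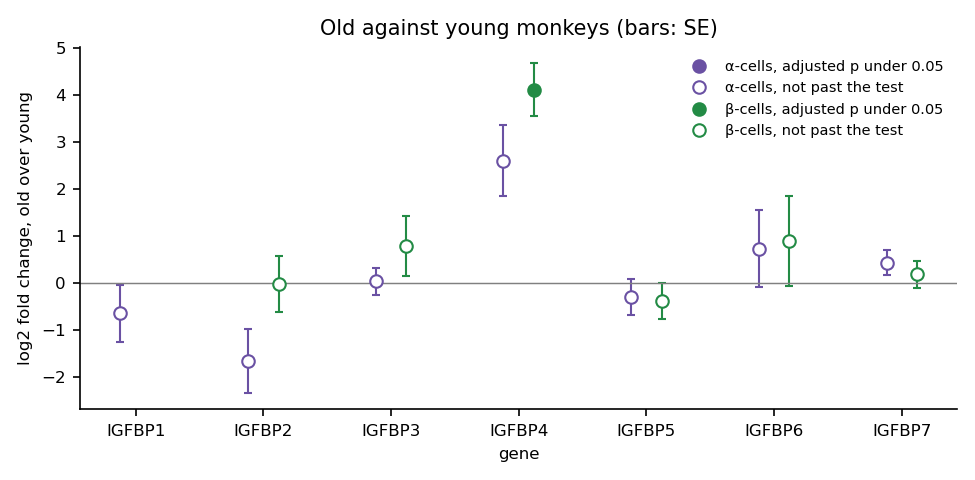
Log2 fold change of old over young monkeys (y axis) for each IGFBP gene (x axis) in α-cells and β-cells, as points with bars of ± SE from edgeR. Filled points have an adjusted p under 0.05, and the only one is IGFBP4 in β-cells at 4.11 ± 0.56.

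The types of hormone cell differed in several members. Type was compared in 1 fit over the sums of all 4 types with the monkey as a block, on 12899 genes, and the IGFBP counts had no part in typing the cells. Between β-cells and α-cells, 1 of the 7 members was higher and 3 were lower, beside 8.66% of all genes higher and 16.3% lower. The median log2 fold change of β-cells over α-cells was -0.82 over the members and -0.11 over all genes.

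IGFBP1, a secreted protein whose gene is repressed by insulin in liver, and IGFBP3 were higher in α-cells than in β-cells. IGFBP1 had 0.555, 2.04 and 10.1 CPM (lowest, median and highest of 16 monkeys) in α-cells and 0, 0.498 and 1.71 CPM in β-cells. Its α-cell value exceeded the β-cell value in 16 of 16 monkeys, and the log2 fold change of β-cells over α-cells was -2.31 ± 0.46 (4.94-fold lower, adjusted p 7.47e-05). IGFBP3 had 8.55, 21.2 and 55.1 CPM in α-cells and 1.09, 3.54 and 14.8 CPM in β-cells, again higher in α-cells of 16 of 16 monkeys, with -2.56 ± 0.42 (5.88-fold lower, adjusted p 2.82e-06). Of the 651 IGFBP3 UMIs in β-cells, 38.6% lay in the marker-carrying cells of other types, without which the pooled level of β-cells went from 6.38 to 3.98 CPM, against 6.12% of those in α-cells.

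Few α-cells carried most of the IGFBP1 transcripts. A UMI was found in 266 of 4503 α-cells (5.91%), and the top 45 cells held 76.6% of the 1001 UMIs. Only 16 cells had 10 or more, led by cells of 150 UMIs (YM3), 130 (OM1) and 71 (YM2), none of which carried markers of another type. In β-cells 47 of 1219 had a UMI (3.86%). IGFBP3 was found in 31.1% of α-cells and 19.3% of β-cells, with a highest α-cell of 414 UMIs in YM3, whose level without it went from 55.1 to 32.0 CPM.

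**Figure D3:**
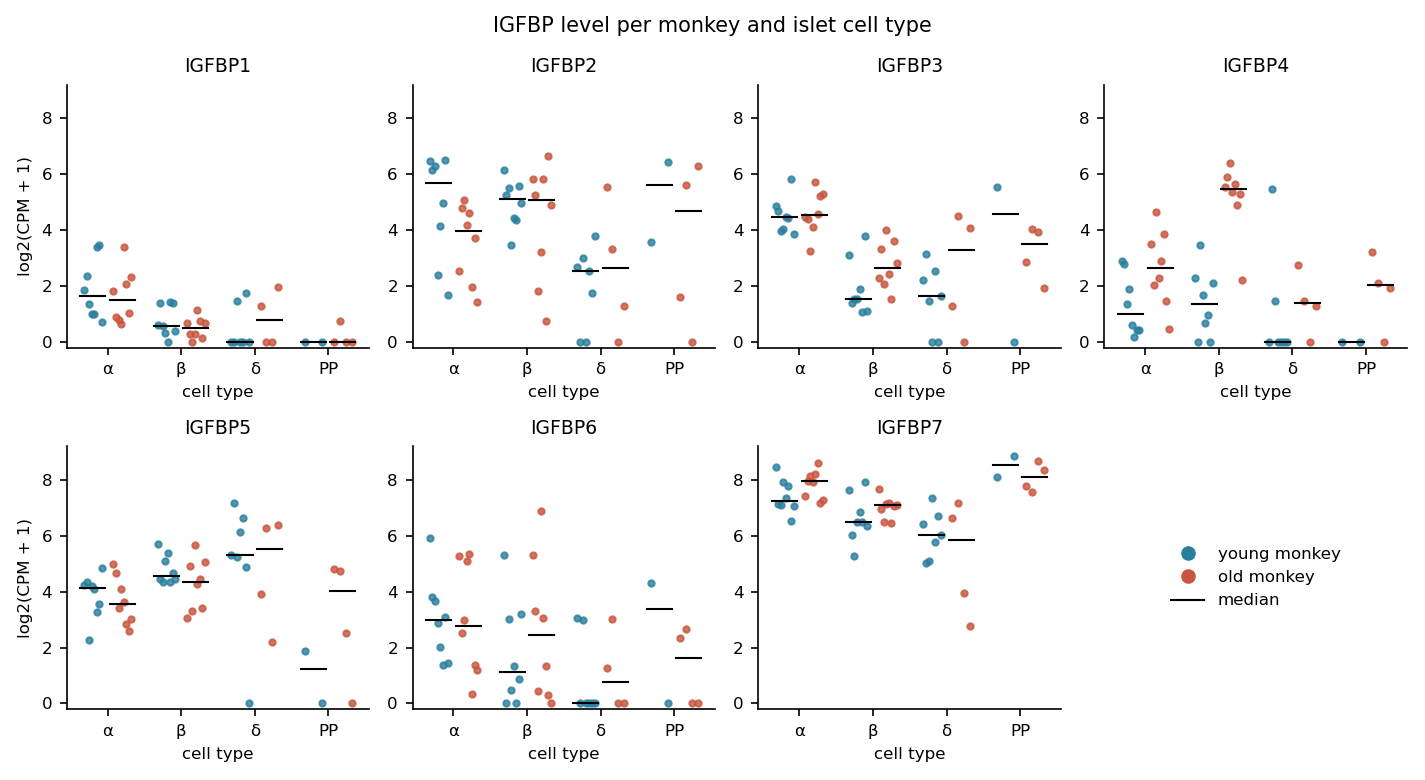
Level of each IGFBP gene as log2(CPM + 1) (y axis) per monkey in α-, β-, δ- and PP-cells, as points for young and old monkeys with lines at the medians. IGFBP1 and IGFBP3 stand highest in α-cells, IGFBP7 is lowest in δ-cells, and in IGFBP4 of β-cells all old monkeys but OM4 stand above the young.

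IGFBP7 had the highest mean in PP-cells, followed by α-cells, β-cells and δ-cells. The means were 309 ± 106 CPM (SD, n = 6) in PP-cells, 211 ± 84.6 (n = 16) in α-cells, 123 ± 54.3 (n = 16) in β-cells and 71.8 ± 50.7 (n = 11) in δ-cells. The 6 PP-cell values were 218, 185, 407 and 322 CPM in OF1, OF2, OM2 and OM4 and 269 and 455 CPM in YM1 and YM4, while δ-cells ranged from 5.80 to 160 CPM, so that these types did not overlap. β-cells were lower than α-cells by 1.76-fold (log2 fold change -0.82 ± 0.24, adjusted p 0.00828), in 14 of 16 monkeys, with OF1 and YM3 the other way.

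PP-cells were higher than β-cells by 2.91-fold in IGFBP7 (1.54 ± 0.35, adjusted p 0.00119, 6 of 6 monkeys), the only member called in that pair, where 6.67% of genes were higher and 10.6% lower. This call rested on the monkeys with few PP-cells, since with at least 20 cells required only OF2 had PP-cells left and the value was 0.50 (adjusted p = 0.76). δ-cells were lower than PP-cells by 5.50-fold (-2.46 ± 0.39, adjusted p 1.41e-05, 5 of 5 monkeys with both types). Between the neighbours PP-cells and α-cells the difference was not called (0.72 ± 0.35, adjusted p 0.21, higher in 5 of 6 monkeys). None of the members was called between them, with 1.78% of genes higher and 4.82% lower. There 2891 genes had an unadjusted p under 0.05, 2 members among them (IGFBP1 and IGFBP7), and DESeq2 called 577 higher and 782 lower genes. A UMI of IGFBP7 was found in a mean of 89.5 ± 11.8% of PP-cells, 76.6 ± 13.6% of α-cells, 69.9 ± 13.1% of β-cells and 42.4 ± 13.6% of δ-cells, and after thinning in 70.1, 55.1, 43.7 and 22.8%, the same order. Among cells with markers of other types, 60 of the 76 acinar-marker cells (78.9%, median 57596 UMIs per cell) and 3 of the 12 immune-marker cells (25.0%, median 19461.5) had an IGFBP7 UMI.

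Between δ-cells and α-cells, 1 member was higher and 5 were lower, beside 4.36% of all genes higher and 18.9% lower and a median of -0.47 over all genes. DESeq2's size factors in the same fit moved the share of higher genes among those called from 18.8% to 32.1%. IGFBP7 fell below α-cells in 11 of 11 monkeys (-1.74 ± 0.30, adjusted p 2.17e-05), and IGFBP3 in 10 of 11 (-2.62 ± 0.55, adjusted p 0.000369). IGFBP2 had a lowest value of 0, a median of 4.85 and a highest value of 45.3 CPM in δ-cells against 1.69, 20.3 and 88.9 CPM in α-cells, which overlapped, and was lower in 10 of 11 monkeys (-2.13 ± 0.70, adjusted p 0.0221). This last call was lost, at adjusted p between 0.0546 and 0.0645, without YF1, YF2, YF3 or YM2. In the 112 δ-cells IGFBP2 had 53 UMIs, 32 of them in 1 cell of OF1, and IGFBP3 had 32 UMIs. IGFBP1 rested on 5 UMIs in 112 δ-cells (-2.01 ± 0.70, adjusted p 0.0302), and was not called without OF2, OM2, YF1, YF2, YM2 or YM3 (0.0545 to 0.0781), by DESeq2 (-1.36, adjusted p 0.132), with DESeq2's size factors (0.0555), without the cells in the top 5% by UMIs (0.0638) or without the monkey as a block (0.0575). IGFBP6, with 14 UMIs in δ-cells, gave -2.77 ± 0.87 (adjusted p 0.0164), but -1.89 and an adjusted p of 0.0941 without the marker-carrying cells. It was not called after thinning (0.0653) or without the block (0.0574). A hormone lead of at least 4 times left 2 monkeys with δ-cells. There IGFBP7 (-1.33, adjusted p 0.107), IGFBP2 (-4.04, 0.199), IGFBP1 (-1.88, 0.522) and IGFBP6 (-10.7, 0.187) were not called. The summed level of the 7 acinar markers in the files had higher medians in δ-cells, at 405 CPM in young and 462 CPM in old monkeys, than in α-cells (7.80 and 2.84 CPM) and β-cells (2.42 and 2.30 CPM), with ranges that overlapped in young monkeys. Of the 112 δ-cells 1 was an acinar-marker cell, and the part of the acinar signal in the δ-cell values was not tested.

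IGFBP5, which binds the extracellular matrix as well as IGFs, was the member that was higher in δ-cells. It had 0, 38.1 and 142 CPM (lowest, median and highest of 11 monkeys) in δ-cells, 3.79, 13.7 and 31.0 CPM in α-cells, 7.38, 20.9 and 51.4 CPM in β-cells and 0, 3.74 and 26.7 CPM in PP-cells. The δ-cell values spread widely, and only 5 of the monkeys (OF2, OM4, YF2, YF4 and YM1) lay above the highest β-cell value. Of the 112 δ-cells 34 had an IGFBP5 UMI (30.4%), against 28.9% of β-cells and 15.5% of α-cells, which were read deeper. Only 6 δ-cells had 10 or more UMIs, led by cells of 48 (OM4) and 32 (OF2) of the 252 in all. δ-cells exceeded α-cells by 1.48 ± 0.48 (adjusted p 0.0193, 8 of 11 monkeys), which was not called without OM4 (1.24, adjusted p 0.0581) or YF2 (1.32, adjusted p 0.0549). With a hormone lead of at least 4 times, which left 2 monkeys with δ-cells, it was 0.24 (adjusted p 0.90). δ-cells exceeded PP-cells by 2.22 ± 0.73 (adjusted p 0.0385, 3 of 5 monkeys), which was not called without OM4, YF2, YF3, YM1 or YM4 (0.0515 to 0.129), after thinning (0.0847) or without the top 5% of cells by UMIs (0.119). The summed level of the 10 stellate markers, whose cells carry IGFBP5, had a higher median in δ-cells as well, from 47.2 to 461 CPM in young (median 158) and 3.60 to 425 CPM in old monkeys (median 120), against 4.73 to 160 CPM (63.8) and 4.55 to 406 CPM (20.7) in α-cells. None of the δ-cells was a stellate-marker cell, and without all marker-carrying cells the value over α-cells was 1.78 (adjusted p 0.00386). β-cells and δ-cells did not differ beyond their spread (0.56 ± 0.46 for δ over β), nor was β over α called (0.92 ± 0.39, adjusted p 0.0780, higher in 13 of 16), although it was without OF1 (1.06, adjusted p 0.0249) or YM4 (1.04, adjusted p 0.0440), by DESeq2 (0.88, adjusted p 0.0321), without the marker-carrying cells (1.04, adjusted p 0.0380) and with at least 20 cells per monkey (0.91, adjusted p 0.0070).

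Between δ-cells and β-cells, 3 members were lower and none higher, beside 5.26% of genes higher and 14.5% lower. They were IGFBP2 (-2.21 ± 0.68, adjusted p 0.0155, 11 of 11 monkeys), IGFBP4 (-2.46 ± 0.84, adjusted p 0.0311, 9 of 11) and IGFBP7 (-0.92 ± 0.30, adjusted p 0.0237, 8 of 11). In δ-cells IGFBP2 rested on 53 UMIs, 32 of them in 1 cell of OF1, and IGFBP4 on 19 UMIs in 9 cells. IGFBP4 was lost without OF1, OF2, OM2, YF1 or YF3 (adjusted p 0.0538 to 0.118), and IGFBP7 without OM4 (-0.70, 0.0750) or YM3 (-0.80, 0.0531) and by DESeq2 (-0.69, 0.0854). With a hormone lead of at least 4 times none of the 3 was called (0.170 to 0.689). With DESeq2's size factors the share of higher genes among those called went from 26.6% to 46.2%, and only IGFBP2 remained called. Between δ-cells and PP-cells, where 3.83% of genes were higher and 6.51% lower, IGFBP5 was higher and IGFBP7 and IGFBP2 were lower. IGFBP2 gave -3.07 ± 0.91 (adjusted p 0.0213, 3 of 5 monkeys) and was lost without OF2, OM4 or YM4 (0.0662 to 0.147). Scaling by library size alone moved the share of higher genes in this pair from 37.0% to 54.7%. For PP-cells, DESeq2's size factors moved it from 27.0% to 43.9% against α-cells and from 38.7% to 53.9% against β-cells. The signs of the members called were the same under each of these scalings.

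IGFBP4 was higher in β-cells than in α-cells by 2.02 ± 0.52 (4.05-fold, adjusted p 0.00245), in 12 of 16 monkeys. All 8 old monkeys had the higher value in β-cells, and 4 of the 8 young monkeys did. In δ-cells it was 0 in 6 of 11 monkeys and highest in YF2 at 43.3 CPM, and in PP-cells it was 8.22, 3.34, 0 and 2.85 CPM in OF1, OF2, OM2 and OM4 and 0 in YM1 and YM4. PP-cells were below β-cells in 6 of 6 monkeys, without a call (-2.70 ± 1.04, adjusted p 0.0622), although leaving out OM4 (adjusted p 0.0429), YF1 (0.0475) or YF2 (0.0223) gave one, as did thinning (-3.21, 0.0288), leaving out the cells in the top 5% by UMIs (-2.86, 0.0455) and leaving out the marker-carrying cells (-3.07, 0.0390).

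The order of the types by mean level differed between members. For IGFBP2 it was PP-cells (37.0 ± 38.2 CPM, SD), β-cells (35.3 ± 26.3), α-cells (31.2 ± 31.5) and δ-cells (8.01 ± 13.0), where the first 3 did not differ beyond their spread (0.87 ± 0.76 for PP over β and 0.08 ± 0.50 for β over α) and δ-cells were called as lower than each. For IGFBP3 it was α-cells (25.5 ± 13.4 CPM), PP-cells (14.1 ± 16.7), δ-cells (5.37 ± 7.12) and β-cells (5.31 ± 4.43), and no pair of neighbours was called (-1.11 ± 0.68 for PP over α, -1.51 ± 0.73 for δ over PP and -0.07 ± 0.57 for δ over β). For IGFBP4 β-cells (22.9 ± 26.3 CPM) led, and α-cells (5.08 ± 6.37), δ-cells (4.90 ± 12.8) and PP-cells (2.40 ± 3.23) did not differ beyond their spread (-0.44 ± 0.83 for δ over α). IGFBP1 had 3.31 ± 3.38 CPM in α-cells, and was near 0 in β-cells (0.631 ± 0.584) and δ-cells (0.765 ± 1.12), which were not told apart (0.30 ± 0.72), with 1 UMI in all 74 PP-cells.

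Most IGFBP6 transcripts lay in few cells, as did those of IGFBP1. The IGFBP6 mean was 14.3 ± 17.8 CPM in α-cells and 14.3 ± 29.8 CPM in β-cells, with medians of 6.58 and 1.52 CPM, and the highest monkeys were YF1 in α-cells (59.1 CPM) and OF4 in β-cells (116 CPM). The top 45 α-cells held 68.8% of its 4336 UMIs, and the top 12 β-cells 71.8% of its 3087 UMIs. Its level was 1732 CPM in the stellate-marker cells and 1091 CPM in the endothelial-marker cells. Cells with markers of other types held 57.5% of its UMIs in α-cells and 63.7% in β-cells, and without them the pooled levels were 5.84 and 11.1 CPM. In β-cells of OF4 the level went from 116 to 25.3 CPM without 3 such cells, and in α-cells of OM1 from 39.6 to 5.93 CPM. The β-over-α value was -1.19 ± 0.58 (adjusted p 0.139), which DESeq2 called (-1.32, adjusted p 0.0456).

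Where a library held a cell very rich in IGFBP6, the other cells of that library more often had a UMI of it. In the third library of OF4 the top cell had 1096 UMIs, and 91 of the 94 other cells (96.8%) had at least 1, with a median of 4. The fourth library of YF1, with a stellate-marker cell of 1326 UMIs that was typed as a PP-cell, had 57.3% of its other cells with a UMI, and the third library of YF1, with a top cell of 717 UMIs, had 53.2%. In the first library of OM1, with a top cell of 487 UMIs, it was 20.2%. The other 60 libraries, with top cells of at most 146 UMIs, had a median of 6.42% but ranged from 0 to 76.2%. Over the 64 libraries, which share monkeys and depth, the UMIs of the top cell and the share of other cells with a UMI had a Spearman rank correlation of 0.806 for IGFBP4, 0.776 for IGFBP1, 0.711 for IGFBP6, 0.518 for IGFBP3, 0.497 for IGFBP2, 0.470 for IGFBP5 and 0.338 for IGFBP7, given as a description. What this relation contributes to the levels of the members was not tested.

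**Figure D4:**
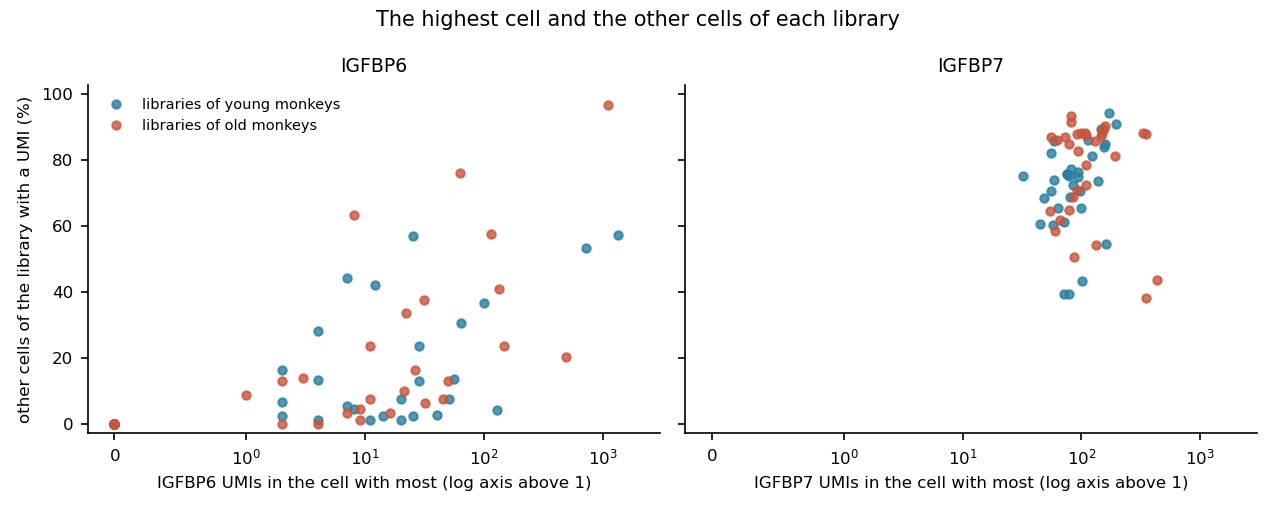
UMIs of the richest cell in each of the 64 libraries (x axis, logarithmic) against the percentage of the other cells with at least 1 UMI (y axis), for IGFBP6 and IGFBP7, coloured by the age group of the monkey. For IGFBP6 the library with the highest share, 96.8%, has a top cell of 1096 UMIs.

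Other members were found in the cells with markers of other types as well. IGFBP5 had 547 CPM in the stellate-marker cells, while 0 of the 14 endothelial-marker cells and 0 of the 12 immune-marker cells had a UMI of it, which allows shares of up to 23.2% and 26.5% by exact binomial intervals. Such cells held 21.2% of the IGFBP5 UMIs of α-cells, 23.9% of β-cells and 69.6% of PP-cells. IGFBP7 had 893 CPM in the stellate-marker and 673 CPM in the endothelial-marker cells, and IGFBP3 had 186 and 199 CPM.

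Counted cell by cell, a mean of 2.50 of the 7 genes had a UMI in an old β-cell against 1.65 in a young β-cell, and 1.12 against 0.786 after thinning. The share of β-cells with none of the 7 was 6.30% in old and 14.2% in young monkeys, and 27.8% and 41.3% after thinning. IGFBP4 was found in 50.4% of old and 5.97% of young β-cells, and IGFBP6 in 33.1% and 10.3%. In α-cells the means were 1.80 in old and 1.90 in young monkeys. These are counts over cells pooled across monkeys, without a test. OF4 gave 194 of the 683 old β-cells. Among libraries with at least 5 β-cells, the median share with an IGFBP6 UMI was 11.1% in old and 6.25% in young monkeys. Tested by monkey, the log2 fold change of IGFBP6 in β-cells was 0.90 ± 0.96, which was not called.

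Over the 49 sums of a monkey and a type, Pearson correlations of log2(CPM + 1) between IGFBP2 to IGFBP7 lay between -0.36 and 0.46 (IGFBP1, under 10 CPM, was not compared), where sums of 1 monkey share the animal and its libraries. Among 9647 genes, those among the most alike were MICAL1 (0.80) and SEMA5A (0.76) for IGFBP3, C7 (0.63), ENSMFAG00000002495 (0.58) and KCTD14 (0.58) for IGFBP4, and PIGF (0.69), RABGAP1L (0.67) and SMC6 (0.67) for IGFBP5. For IGFBP2 they were CHUK (0.65), FSTL1 (0.62) and CD59 (0.62), for IGFBP6 ENSMFAG00000040595 (0.77), SPARC, a matrix protein of stellate cells (0.75), and ENSMFAG00000039100 (0.73), and for IGFBP7 ENSMFAG00000002541 (0.71), CCND2 (0.70) and ENSMFAG00000034295 (0.70). In the RefSeq annotation of another assembly of the species (T2T-MFA8v1.1), IGFBP1 and IGFBP3 are neighbours on chromosome 3, and IGFBP2 and IGFBP5 on chromosome 12. IGFBP1 and IGFBP3 were both higher in α-cells than in β-cells, whereas IGFBP2 fell and IGFBP5 rose in δ-cells against α-cells.

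The rest of the IGF system was followed in 3 lists, of ligands, receptors and adaptors (11 of 11 genes in the files), of proteases that cut the binding proteins with their inhibitors (16 of 16), and of related proteins (10 of 16 symbols, some of them older names of the same gene). No gene of these lists was called for age in any type (of 9, 8 and 6 tested in α-cells and 5, 6 and 4 in β-cells). CTGF, a matrix-associated protein with an IGFBP-like domain, gave 1.16 ± 0.33 for old over young in α-cells (adjusted p = 0.55).

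PAPPA2, a protease that cuts IGFBP3 and IGFBP5, had 272 ± 207 CPM in α-cells (46.6 to 920), 15.9 ± 11.8 in β-cells, 23.0 ± 24.0 in δ-cells and 17.4 ± 18.9 in PP-cells. β-cells were below α-cells by -4.17 ± 0.24 on the log2 scale (adjusted p 2.00e-20), and δ-cells by -4.24 ± 0.31 (adjusted p 5.28e-16). Of the 8 genes of its list tested between β-cells and α-cells, PAPPA2 and STC2, which inhibits proteases of the PAPPA family, were lower and CTSD, a lysosomal protease, was higher (285 ± 74.1 CPM in α-cells and 370 ± 89.0 in β-cells, 0.41 ± 0.14). ADAM9, the next most abundant of the list, was not called in this pair (-0.26 ± 0.29). Over all genes 16.3% were lower and 8.66% higher in β-cells than in α-cells.

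Of the 9 ligands, receptors and adaptors tested, 5 were lower in β-cells than in α-cells and none was higher. Over all genes 16.3% were lower and 8.66% higher in this pair. The 5 lower genes were IGFALS, which joins IGFBP3 and IGFBP5 in the ternary complex of blood, and IRS1, IRS2, GRB10 and GRB14. GRB14, an adaptor that dampens signals of the insulin receptor, had 93.6 ± 23.4 CPM in α-cells and 16.0 ± 7.36 CPM in β-cells, with groups that did not overlap (-2.64 ± 0.26, adjusted p 4.38e-12). The receptors IGF2R, which clears IGF2, and IGF1R were not called in this pair (-0.11 ± 0.27 and 0.65 ± 0.45). Among the 7 related proteins tested, IGFBPL1, KAZALD1, CRIM1 and WISP3 were lower in β-cells than in α-cells and none was higher, beside the same shares over all genes. IGFBPL1 was near the floor in both, at 2.07 ± 1.77 CPM in α-cells and 0.0821 ± 0.203 in β-cells. It was called as higher in δ-cells (15.3 ± 18.8 CPM, median 3.63) than in α-, β- and PP-cells. CTGF had 64.4 ± 62.9 CPM in δ-cells, 16.2 ± 10.8 in α-cells and 9.95 ± 8.40 in β-cells, and was higher in δ-cells than in either (1.55 ± 0.51 and 2.47 ± 0.52, adjusted p 0.0211 and 0.000374). CRIM1, a membrane protein with such a domain, had 71.4 ± 52.9 CPM in δ-cells and 13.3 ± 14.04 in β-cells (2.15 ± 0.43, adjusted p 0.000198). The part of the higher acinar and stellate marker levels of δ-cells in these values was not tested. Apart from the 3 most abundant genes of each list, these genes are named because they were called in a pair of types.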

How the data were processed

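Raw UMI counts per gene and cell were deposited for 64 libraries, 4 from each of 16 monkeys, without normalization. The authors trimmed and filtered the reads and aligned those left to Macaca_fascicularis_5.0 with TopHat2 (2.0.12, per the submitters' processing notes, which also name CASAVA 1.8), kept uniquely mapped reads, counted them per gene with HTSeq and counted reads that shared a UMI once. Rows of 95 spike-in RNAs were left out. Whether counting used strand is not given in the sources used here.

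Cells were kept above 800 genes and 10000 UMIs, and typed by the highest of GCG, INS, SST and PPY. The study's further filter on mapping rate, its clustering and its batch correction were not used here, so the types may differ from the published ones. No doublet caller was run, and in an alternative the 5% of cells with the most UMIs were left out. Counts were summed per monkey and type (at least 5 cells). The test was the quasi-likelihood test of edgeR 4.0.16 (R 4.3.3) after filterByExpr and TMM, in a model of age group and sex, with p adjusted by Benjamini-Hochberg over all genes tested and a threshold of 0.05. The SE of a log2 fold change was taken from its F statistic. DESeq2 1.42.0 was the other tool. Levels are CPM of the summed counts and were computed in Python 3.11.15 with numpy 2.4.6, pandas 2.3.3 and scipy 1.17.1. Thinning drew 10000 UMIs of macaque genes per cell and left out 45 kept cells that had fewer of these. The fits were checked on simulated data.

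The members and gene lists were chosen with earlier results of these data known. Named are the 7 members in every comparison, the genes of the lists called for age, the 3 most abundant of each list, and the 3 genes most alike to each member of at least 10 CPM in a type, of which 1 is not reported here. Intervals and floors (3 counts) cover counting error only.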

Additional observations from a re-analysis of the deposited data

Results flagged for a closer look

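Samples far from the rest of their age group were sought by Dixon's test in the 49 combinations of a member, a type and an age group with 4 to 8 monkeys. In 9 of them there was one, each a high value. The test's rate of about 1 in 20 by chance holds for normally distributed values. These CPM values include many near 0, so the 9 cannot be read as more than chance gives. In α-cells, OM1 had 9.58 CPM of IGFBP1 (next highest old monkey 4.04), YM3 had 55.1 CPM of IGFBP3 (27.9) and YF1 had 59.1 CPM of IGFBP6 (12.9). In β-cells, OF4 had 116 CPM of IGFBP6 (38.5), YF1 had 38.7 CPM of IGFBP6 (8.10), OF1 had 204 CPM of IGFBP7 (142) and YF3 had 10.01 CPM of IGFBP4 (3.89). In δ-cells, YF2 had 43.3 CPM of IGFBP4 over 6 cells (1.74). In PP-cells, OF2 had 0.667 CPM of IGFBP1, which is 1 UMI, with the other old monkeys at 0. Without cells that carried markers of other types, the IGFBP6 values were 14.9 CPM for YF1 in α-cells, 11.5 CPM for YF1 in β-cells and 25.3 CPM for OF4 in β-cells.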

How the results depend on the processing

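Over the members' fold changes printed here or called in some fit, 1317 values under alternatives kept their direction and their side of the threshold, 51 lost the call, 18 gained one and 62 changed sign. The age values in δ-cells and PP-cells, where no member was called, and the calls of PP-cells in any pair rest on few monkeys and few UMIs. With at least 20 cells per monkey no δ-cells and only OF2 (33 PP-cells) were left. With a hormone lead of at least 4 times, δ-cells had 2 monkeys, PP-cells none and β-cells 11 (4 young), so no age fit for δ-cells or PP-cells was possible. The fits by sex, of the interaction and of β-cells against α-cells under DESeq2, without marker-carrying cells, thinned, at 4 times and without each monkey were added after seeing the data.

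The number of members called moved by more than 1.5 times as follows. DESeq2 called 1 for age in α-cells and 3 for PP-cells against β-cells. For the latter pair it was 2 after thinning, 2 without the cells above the 95th percentile, 3 without marker-carrying cells and 0 at 20 cells. At 4 times it was 1 for δ-cells against α-cells and 0 for δ-cells against β-cells, where DESeq2's size factors left 1. Leaving out each monkey gave 3 to 6 for δ-cells against α-cells, 1 to 2 for PP-cells against β-cells and 1 to 3 for δ-cells against PP-cells.

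The values that changed sign were not called. For age in α-cells they were IGFBP1 (0.034) and IGFBP3 (-0.055) without the cells above the 95th percentile, IGFBP3 at 4 times (-0.12) and IGFBP6 without marker-carrying cells (-0.098). For age in β-cells IGFBP2, at -0.02, gave 0.028 by library size, 0.13 thinned, 1.51 at 4 times, 0.052 without marker-carrying cells, 0.0091 at 20 cells and 0.0011 without the covariate, IGFBP5 gave 0.012 thinned and IGFBP6 -1.19 at 4 times. IGFBP7 for age in PP-cells gave -0.0023 by library size, -0.12 thinned and -0.29 without the covariate. Between types, IGFBP3 of δ-cells against β-cells gave 0.20 by DESeq2, 0.15 with its size factors, 0.056 by library size, 0.31 thinned and 0.059 without marker-carrying cells. IGFBP5 of that pair gave -0.11 and IGFBP2 of β-cells against α-cells -0.027 at 4 times, IGFBP4 of δ-cells against α-cells 0.11 by DESeq2 and IGFBP7 of PP-cells against α-cells -0.32 at 20 cells. At 4 times, IGFBP4 in β-cells gave -0.27 for females over males and 0.36 for the interaction. Leaving out each monkey gave, for age, -0.11 to 0.25 for IGFBP3 and -0.84 to 1.31 for IGFBP6 in α-cells, -0.39 to 0.22 for IGFBP2 in β-cells, -1.27 to 0.27 for IGFBP5 in δ-cells, and -7.84 to 1.91 for IGFBP2, -2.87 to 3.51 for IGFBP5 and -0.24 to 0.53 for IGFBP7 in PP-cells. Between types it gave -0.11 to 0.27 for IGFBP2 of β-cells against α-cells, -1.56 to 0.041 for IGFBP4 of δ-cells against α-cells, and -0.12 to 0.59 for IGFBP1 and -0.41 to 0.17 for IGFBP3 of δ-cells against β-cells. The cause was not tested.

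Replicate numbers were not used as pairs in the main fits. Deviations of same-numbered monkeys correlated at -0.0498 to 0.143 in α-cells and -0.0619 to 0.0629 in β-cells. Among the old monkeys of their sex, 4 of 8 young monkeys in α-cells and 1 of 8 in β-cells correlated best with their own number. In α-cells these were numbers 1 and 2 of both sexes, so the values do not settle whether the numbers pair the monkeys. With the replicate number as a block, IGFBP4 in β-cells gave 4.21 (adjusted p 0.0121) and IGFBP6 in α-cells -0.36. Without the monkey as a block, 1 member was called for PP-cells against α-cells, and IGFBP6 gave 0.046 for β-cells against α-cells.

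DESeq2 called more genes than edgeR, for age 17 higher and 9 lower in α-cells (none by edgeR) and 30 higher and 11 lower in β-cells (4 and 1). Without the filter on low counts edgeR called 11 higher and 10 lower in β-cells, 2 and 1 in δ-cells and 4 and 5 in PP-cells. For δ-cells against PP-cells DESeq2 called 944 higher and 1159 lower (494 and 840).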
